A study of Homo sapiens with 6 samples.

Results

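The 33 genes described here encode the enzymes that build cholesterol, proteins that move or store it, and the regulators that sense it, the sterol regulatory element-binding proteins (SREBPs) and their escorts. They were chosen by symbol from what these proteins do, with earlier results of these data known. Each of the 33 matched exactly 1 of the 48114 rows of the table, and all 33 passed the filter on low counts. They were grouped as 8 early mevalonate genes, 11 genes of the sterol branch, 6 of sterol uptake, transport and storage, and 8 of sensing.

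RNA sequencing was done on TC-71, an established line of Ewing sarcoma, a bone and soft tissue tumour, with the genotype given as wild type. A group of 3 libraries came from cells kept for 16 h with BEZ235, which blocks PI3K, a kinase of membrane lipids, and mTOR, a kinase that couples growth to nutrients. The other group of 3 came from cells kept for the same time with the solvent dimethyl sulfoxide (DMSO), in which BEZ235 was dissolved. The medium of both groups held fetal bovine serum, a source of lipoprotein cholesterol, and the labels used here state no dose. The replicates are called biological in the labels, within a single cell line, so the tests apply to this line.

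Cholesterol is made from acetyl-CoA through mevalonate, farnesyl diphosphate, squalene and lanosterol. When sterols in the endoplasmic reticulum are plentiful, INSIG proteins hold SCAP and the SREBPs there. When sterols fall, SCAP carries the SREBPs to the Golgi, where the proteases encoded by MBTPS1 and MBTPS2 release their transcription factor domain, which acts on most genes of the pathway, INSIG1 included. mTOR complex activity is known to favour SREBP activity, in part through lipin 1, the product of LPIN1.

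The deposited values are read counts scaled per library, here called normalized counts. Libraries held 184790722 to 233767211 recovered reads, and 3 reads, the upper limit for a gene with none, were worth 2.50 to 3.47 normalized counts, far below the lowest member value. Ewing sarcoma markers were present, with CD99 at 205289 to 267375, NR0B1 at 24750 to 60166 and NKX2-2 at 3009 to 7707. All 8 such markers were above 0 in all 6 libraries, and they summed to 358426 to 381474 with DMSO and 282696 to 289836 with BEZ235. CD99 made up most of that sum, and of the 8 markers 4 rose (NKX2-2, LIPI, STEAP1 and PAX7), 3 fell (CD99, NR0B1 and BCL11B) and PRKCB was not called. The sums were 0.83 to 18.4 in both groups together for 4 endothelial markers, with VWF and TEK at 0 in 5 of 6 libraries each. They were 41.7 to 66.1 with DMSO and 88.9 to 133 with BEZ235 for 4 epithelial markers, with KRT5 and KRT19 at 0 throughout, and 2204 to 3281 and 1457 to 1545 for 5 blood markers, nearly all CD68, with CD3E at 0 throughout. For 4 fibroblast markers they were 23544 to 24892 and 34477 to 36694, with none at 0 and COL3A1 as most of the sum. COL3A1, PDGFRB and DCN rose (log2 0.49, 1.43 and 0.25), and LUM fell to 15.9% of its DMSO level. Mitochondrially encoded rows held 2.82 to 3.55% of normalized counts with DMSO and 0.507 to 0.706% with BEZ235. The part of these differences in the results below was not tested. In bulk RNA, fewer cells of a type and less RNA per cell cannot be told apart.

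With BEZ235 the pathway did not move as a block. Of the 33 members 23 changed, 12 higher and 11 lower, at a limma adjusted p under 0.05. Among all 23923 genes tested 66.3% changed by that rule, 33.1% higher and 33.2% lower, so the share of members called (69.7%) was near the background. The median log2 fold change was 0.19 over members and 0.00 over all genes. Changes of at least 2-fold were seen for 4 members, TM7SF2, CYP51A1 and TMEM97 upwards (3 of 33, against 12.7% of all genes) and SREBF1 downwards (1 of 33, against 13.6%), or 26.3% of all genes in either direction. Groups did not overlap for 23 of the 33 members, against 70.9% of all genes. Among the 19 biosynthetic enzymes 8 rose and 4 fell. Among the 8 sensing genes 2 rose and 4 fell. The plot of changes by pathway step shows that each step held members of either sign.

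**Figure D1:**
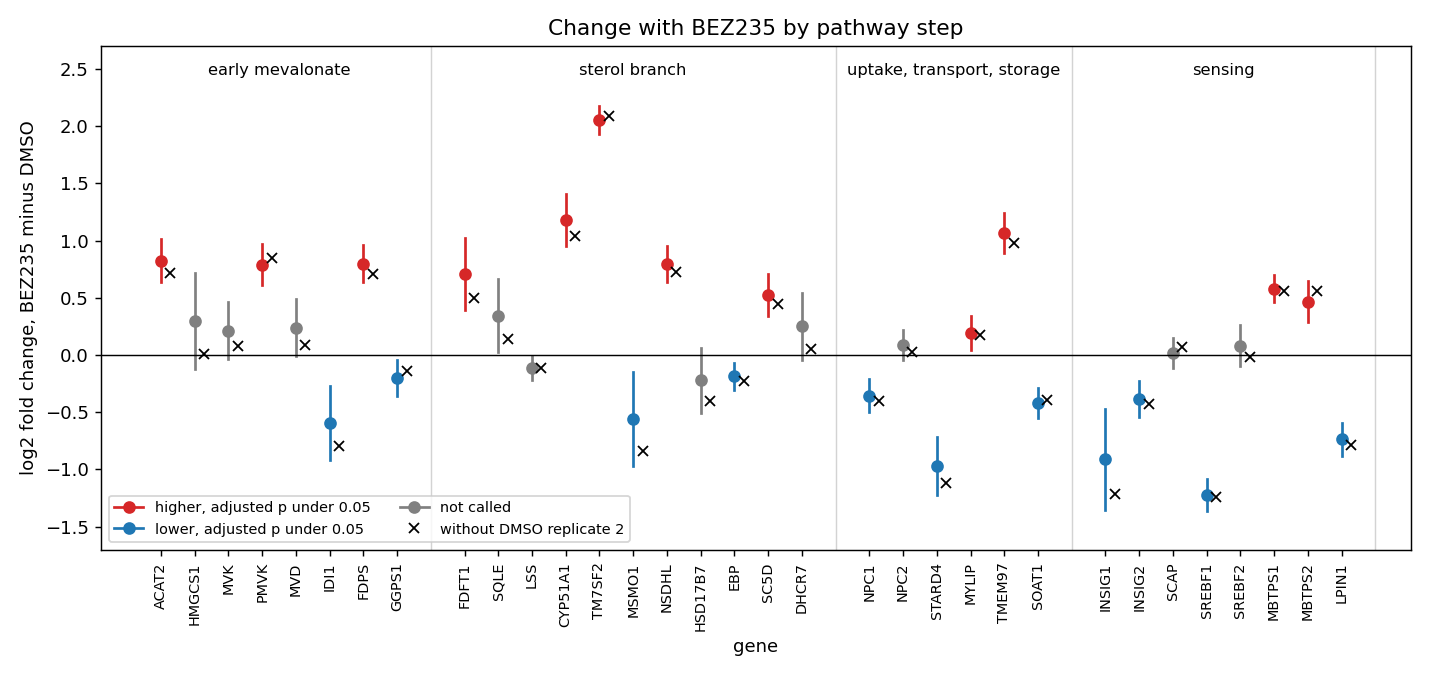
Log2 fold change of each of the 33 genes (BEZ235 minus DMSO, vertical axis, on log2(normalized count + 1)) in the order of the pathway, with 95% confidence intervals from the limma fit; red genes were higher and blue lower at an adjusted p under 0.05, grey genes were not called, and crosses give the value without DMSO replicate 2. TM7SF2 stands highest at 2.06 and SREBF1 lowest at -1.22, and the crosses of HMGCS1, SQLE, MVK, MVD and DHCR7 lie nearer to 0 than their circles.

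The spread among DMSO libraries has to be seen before the changes. Over all genes, DMSO replicates 2 and 3 were the closest DMSO pair in read counts (mean chi-square per gene 40.8), while replicate 1 differed more from replicate 2 (152.3) and from replicate 3 (113.3). DMSO replicate 2 was the lowest of its group for 24 of the 33 members, and for 15 of the 19 biosynthetic enzymes, whereas it was the lowest for 37.8% of all genes tested and for 35.2% of the 10984 genes with a DMSO mean of at least 1000. DMSO replicate 1 was the highest of its group for 24 members, against 35.5% of all genes. Summed over the 19 enzymes, normalized counts were 279829, 193536 and 247760 in DMSO replicates 1, 2 and 3, and 293031, 282447 and 273393 in the BEZ235 libraries. The sum was thus lowest in DMSO replicate 2, and in DMSO replicate 1 it lay inside the range with BEZ235. Taken as parts of 1000000 reads of the same library, which no scaling touches, the enzymes held 1358, 1014 and 1270 with DMSO and 1358, 1305 and 1361 with BEZ235. Both measures lean on a few abundant enzymes, SQLE, IDI1 and MSMO1 having the largest DMSO means among the 19 (36862, 35571 and 32813).

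The dip was deepest for INSIG1, HMGCS1 and MSMO1, which are singled out here after their values were seen. INSIG1, which retains SCAP when sterols are plentiful, stood at 16161, 7830 and 13138 normalized counts in the 3 DMSO libraries, and HMGCS1, which makes the precursor of mevalonate, at 14986, 7585 and 12771. MSMO1, which oxidizes the methyl groups of lanosterol products, stood at 42594, 21556 and 34288. In each of the 3 the second DMSO library was the low outlier, at least 1.5-fold below both others. Only 12 of the 10984 better expressed genes (0.109%) had so deep a dip in that library, and 11 had as high a peak. Over all genes, libraries of the same group correlated at 0.982 to 0.987, DMSO replicate 2 included. Relative to the mean of the other two DMSO libraries, DMSO replicate 2 was lower by a median of 0.40 on the log2 scale over the enzymes, where all genes had a median difference of 0.01. It was not low for every member: TM7SF2, SOAT1, SCAP, PMVK, GGPS1 and MBTPS2 were highest of the group there.

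BEZ235 libraries were much closer to each other. The SD of log2 values was larger among DMSO than among BEZ235 libraries for 29 of 33 members, with medians of 0.15 and 0.06. Over all genes tested the medians were 0.14 and 0.10, and over genes with a DMSO mean of at least 1000 they were 0.08 and 0.06. The coefficient of variation exceeded 15% for 12 members with DMSO and for 0 with BEZ235. The share of all genes with a larger SD among DMSO libraries, or with such a coefficient, was not computed. INSIG1 spanned a 2.06-fold range with DMSO and a 1.11-fold range with BEZ235, and MSMO1 spanned 1.98-fold and 1.12-fold. Why DMSO replicate 2 was low was not tested. Why DMSO replicate 1 was high was not tested either. Because these ranges set the error of the comparison, each member whose call turned on leaving out 1 of them is also given without it.

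**Figure D2:**
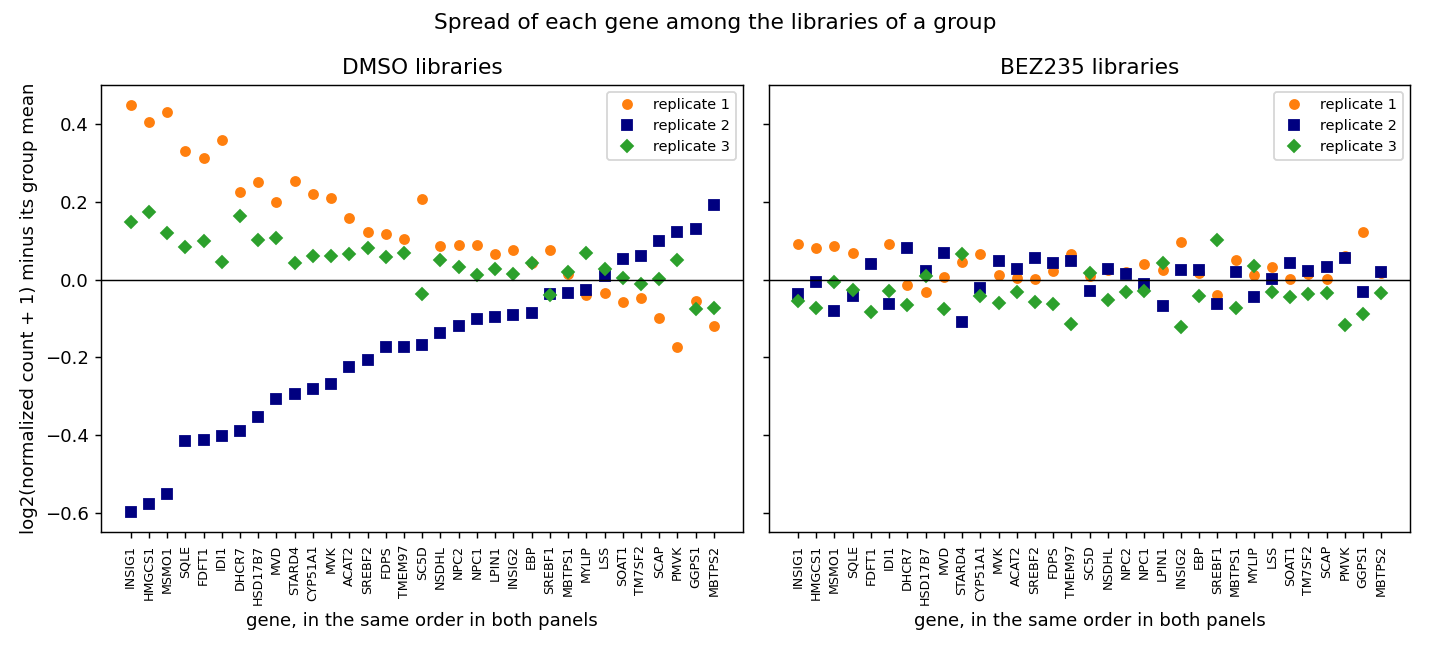
Deviation of each library from its group mean (vertical axis, log2(normalized count + 1)) for the 33 genes, ordered by how far DMSO replicate 2 lies below the other DMSO libraries, with DMSO on the left and BEZ235 on the right. DMSO replicate 2 (squares) falls below the group mean for most genes and lowest for INSIG1, HMGCS1 and MSMO1, while the BEZ235 points stay close to 0 for the same genes.

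Promoters of 5 members are shown because they are the largest rise (TM7SF2), a wide spread among DMSO libraries (INSIG1 and MSMO1), a fall of a sterol carrier (STARD4), and the gene of the sterol-responsive factor itself (SREBF2). Each line gives the 250 bases before the start site, 5′ to 3′ on the gene's strand, from RefSeq (GRCh38.p14). Capitals mark CCAAT on either strand (ATTGG on the other), the palindrome CACGTG, and TCACNCCAC, a sterol regulatory element type.
TM7SF2: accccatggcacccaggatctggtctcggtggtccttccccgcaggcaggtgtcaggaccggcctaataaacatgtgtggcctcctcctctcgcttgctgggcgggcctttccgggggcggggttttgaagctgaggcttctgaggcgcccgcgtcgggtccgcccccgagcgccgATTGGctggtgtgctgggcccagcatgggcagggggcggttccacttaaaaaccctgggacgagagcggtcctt
INSIG1: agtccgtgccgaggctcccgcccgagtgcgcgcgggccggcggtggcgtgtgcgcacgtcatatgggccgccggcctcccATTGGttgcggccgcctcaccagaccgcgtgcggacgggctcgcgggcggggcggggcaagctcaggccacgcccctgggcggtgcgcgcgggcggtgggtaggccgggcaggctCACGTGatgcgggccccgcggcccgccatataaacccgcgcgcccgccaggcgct
MSMO1: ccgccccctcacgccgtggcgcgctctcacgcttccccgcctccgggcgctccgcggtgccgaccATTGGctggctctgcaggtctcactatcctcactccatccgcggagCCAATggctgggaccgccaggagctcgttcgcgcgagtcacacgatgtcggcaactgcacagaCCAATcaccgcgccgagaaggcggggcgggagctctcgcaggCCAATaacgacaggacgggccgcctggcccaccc
STARD4: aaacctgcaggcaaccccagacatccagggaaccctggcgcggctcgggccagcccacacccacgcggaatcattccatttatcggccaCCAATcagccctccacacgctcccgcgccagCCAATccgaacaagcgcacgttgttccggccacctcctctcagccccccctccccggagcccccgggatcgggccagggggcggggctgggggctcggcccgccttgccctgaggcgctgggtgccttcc
SREBF2: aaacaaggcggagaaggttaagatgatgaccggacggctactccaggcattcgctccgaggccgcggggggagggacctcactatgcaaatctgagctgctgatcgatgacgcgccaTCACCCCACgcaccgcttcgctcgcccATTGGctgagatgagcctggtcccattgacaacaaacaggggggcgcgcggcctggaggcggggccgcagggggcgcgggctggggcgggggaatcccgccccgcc
The windows are chr11:65111622-65111871 (+), chr7:155297628-155297877 (+), chr4:165327419-165327668 (+), chr5:111512536-111512785 (-) and chr22:41832855-41833104 (+).

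Over windows from 250 bases before to 50 after a start, 30 of 33 members had an entry in the RefSeq table, all but ACAT2, SQLE and FDFT1. CCAAT, the letters of the box that the SREBP partner NF-Y is known to bind, was present for 21 of the 30 members (70.0%), against 41.2% of the 18599 genes of the table with a window. MSMO1 held 4 of them in the stretch shown and STARD4 held 2. The GC box GGGCGG was found for 27 of the 30 members, against 59.1% of all genes, and CACGTG for 4 (13.3%, against 10.1%), INSIG1, LSS, SC5D and SCAP. TCACNCCAC was found for SREBF2 alone, 133 bases before the start, and in 1.41% of all genes. TGATGNAA, an amino acid response type, was found for 0 of the 30 members and 3.82% of all genes. All were searched on both strands, GGGCGG can overlap the other motifs, and a match is a description of letters. Only exact matches were counted, with N as any base, so a missing match does not show that no such element is present. The genes of the table with a window were not limited to those that passed the filter on low counts, as all members did. Shares among tested genes alone were not computed.

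The early mevalonate genes moved in either direction. Of the 8, ACAT2, PMVK and FDPS rose, IDI1 and GGPS1 fell, and HMGCS1, MVK and MVD did not pass the test. That is 62.5% called, against 66.3% of all genes. Without DMSO replicate 1 the count of genes that rose was 6 in place of 3.

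ACAT2, the cytosolic thiolase that joins acetyl-CoA units, measured 7747, 5935 and 7260 with DMSO and 12320, 12534 and 12025 with BEZ235. All BEZ235 libraries lay above all DMSO libraries, a log2 fold change of 0.83 (SE 0.086, adjusted p = 7.34e-06 in limma). HMGCS1, the next enzyme, measured 14736, 13870 and 13241 with BEZ235, inside the wide DMSO range given above. Its log2 fold change was 0.30 (95% confidence interval -0.12 to 0.72, limma adjusted p = 0.187). Without DMSO replicate 2 it was 0.01 (SE 0.071, adjusted p = 0.906), and without DMSO replicate 1 it was 0.50 with an adjusted p of 0.0136.

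MVK, mevalonate kinase, ran from 1003 to 1398 with DMSO and from 1344 to 1449 with BEZ235. MVD, the decarboxylase that makes isopentenyl diphosphate, ran from 2379 to 3381 and from 3293 to 3636. For both, only DMSO replicate 1 lay inside the BEZ235 range, with log2 fold changes of 0.21 (interval -0.04 to 0.46) and 0.24 (interval -0.01 to 0.49). Without DMSO replicate 2 both were at 0.08, with adjusted p of 0.412 for MVK and 0.272 for MVD. Without DMSO replicate 1 they were at 0.32 and 0.34, with adjusted p of 0.0186 and 0.0135. PMVK, the kinase that acts between them, did not share the dip: it measured 10880, 13367 and 12718 with DMSO and 22131, 22061 and 19581 with BEZ235. It rose by a log2 fold change of 0.79 (SE 0.080, adjusted p = 5.8e-06 in limma), with the groups apart.

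IDI1, the isomerase of isopentenyl diphosphate, went the other way. It measured 44562, 26295 and 35855 with DMSO and 24537, 22044 and 22547 with BEZ235. The DMSO replicate 2 value lay just above the BEZ235 range, and the log2 fold change was -0.59 (SE 0.146, adjusted p = 0.0040 in limma), or -0.80 without that library. FDPS, which makes farnesyl diphosphate at the branch point, measured 12860, 10510 and 12342 with DMSO and 20904, 21205 and 19698 with BEZ235, a log2 fold change of 0.80 (SE 0.074, adjusted p = 2.9e-06 in limma). GGPS1, which makes geranylgeranyl diphosphate for protein prenylation, ran from 11429 to 13179 with DMSO and from 9841 to 11389 with BEZ235. Its fall was small, -0.20 on the log2 scale (SE 0.072, adjusted p = 0.0287), and its adjusted p was 0.078 when DMSO replicate 2 was left out, 0.091 and 0.112 when BEZ235 replicates 2 and 3 were, and 0.108 with no variance trend (0.00799 to 0.112 over all alternatives).

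Row overlap limits some of these values, since the counting rule is not given. The whole FDPS row lies inside that of SLC50A1 and shares 32.3% of its length with RUSC1-AS1, which itself went from a mean of 7317 to 10964, the IDI1 row shares 43.6% of its length with WDR37 and 28.8% with IDI2-AS1, and the ACAT2 row touches TCP1 and SOD2. FDPS and HSD17B7 also have pseudogene copies with which reads could be shared.

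In the sterol branch 5 of 11 enzymes rose (FDFT1, CYP51A1, TM7SF2, NSDHL and SC5D), MSMO1 and EBP fell, and SQLE, LSS, HSD17B7 and DHCR7 were not called. The share called was 63.6%, against 66.3% of all genes. Without DMSO replicate 3 none of the 11 fell at the threshold, and with total-count scaling 4 did.

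FDFT1, squalene synthase, the first enzyme committed to sterols, measured 27554, 16654 and 23774 with DMSO and 37360, 37231 and 34220 with BEZ235. Every BEZ235 library was above every DMSO library, a log2 fold change of 0.71 (SE 0.142, adjusted p = 0.0011 in limma), or 0.50 without DMSO replicate 2. SQLE, squalene epoxidase, a rate-controlling step, measured 45322, 27052 and 38211 with DMSO and 47926, 44443 and 44938 with BEZ235. Only DMSO replicate 1 lay in the BEZ235 range, and the log2 fold change of 0.34 (interval 0.03 to 0.66, not adjusted for the number of genes) had a limma adjusted p of 0.0546. That p was 0.113 without DMSO replicate 2 and 0.0017 without DMSO replicate 1. LSS, which closes the rings of lanosterol, varied little within each group: it ran from 13061 to 13632 with DMSO and from 12070 to 12619 with BEZ235. Its groups did not overlap, yet the difference of -0.12 missed the threshold (limma adjusted p = 0.0532). LSS was called lower in limma with total-count scaling (adjusted p = 0.00877) or a filter of 50 (adjusted p = 0.0499), and in DESeq2 (adjusted p = 0.0434).

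The removal of methyl groups from lanosterol involves CYP51A1, the reductases TM7SF2 and LBR, MSMO1, NSDHL and HSD17B7, of which some rose and some fell. CYP51A1, the demethylase (FASTDB gene GSHG0040823, hg38 chromosome 7, 92112152 to 92134803), measured 7395, 5230 and 6632 with DMSO and 15058, 14174 and 13976 with BEZ235. It rose 2.27-fold, a log2 fold change of 1.18 (SE 0.104, adjusted p = 1.96e-06 in limma). TM7SF2 (GSHG0006352, chromosome 11, 65111872 to 65116384) measured 2376, 2564 and 2436 with DMSO and 10326, 10377 and 9957 with BEZ235. This was the largest member change, 4.16-fold (log2 2.06, SE 0.055, limma adjusted p = 4.01e-10), and DMSO replicate 2 was the highest DMSO library. LBR, a nuclear envelope protein with the same reductase activity, measured 8871, 9243 and 8370 and fell to 5497, 5350 and 5588, a log2 fold change of -0.69 (SE 0.055, adjusted p = 9.57e-07 in limma).

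MSMO1 (GSHG0033074) measured 22707, 20260 and 21325 with BEZ235, a range that took in DMSO replicate 2 and lay below the other two. Its log2 fold change was -0.56 (SE 0.186, adjusted p = 0.0205 in limma), or -0.84 (SE 0.083) without DMSO replicate 2. The adjusted p was 0.0694 without DMSO replicate 3, 0.0712 and 0.0677 without BEZ235 replicates 2 and 3, and 0.113 without the variance trend (3.35e-06 to 0.113 over all alternatives). NSDHL, the dehydrogenase that removes the carboxyl group, measured 2634, 2258 and 2573 with DMSO and 4379, 4391 and 4154 with BEZ235, with no overlap and a log2 fold change of 0.79 (SE 0.070, adjusted p = 2.06e-06 in limma). HSD17B7, the keto-reductase that follows it, ran from 1569 to 2385 with DMSO and from 1682 to 1744 with BEZ235. Its DMSO libraries lay on either side of the BEZ235 range, with a log2 fold change of -0.22 (interval -0.50 to 0.06), or -0.40 with an adjusted p of 0.00043 without DMSO replicate 2.

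In the last steps, EBP, the sterol isomerase, ran from 9921 to 10841 with DMSO and from 8983 to 9403 with BEZ235, a fall of 0.19 on the log2 scale (limma adjusted p = 0.0106, or 0.0568 without DMSO replicate 3, and 0.000848 to 0.0568 over all alternatives). SC5D, the desaturase, measured 9356, 7214 and 7903 and rose to 11762, 11451 and 11825, a log2 fold change of 0.53 (SE 0.082, adjusted p = 0.000182 in limma). DHCR7, the reductase that yields cholesterol, ran from 5809 to 8899 with DMSO and from 8647 to 9564 with BEZ235. Its groups overlapped, with a log2 fold change of 0.25 (interval -0.04 to 0.54), or 0.05 (SE 0.057, adjusted p = 0.423) without DMSO replicate 2 and 0.36 (adjusted p = 0.0212) without DMSO replicate 1.

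**Figure D3:**
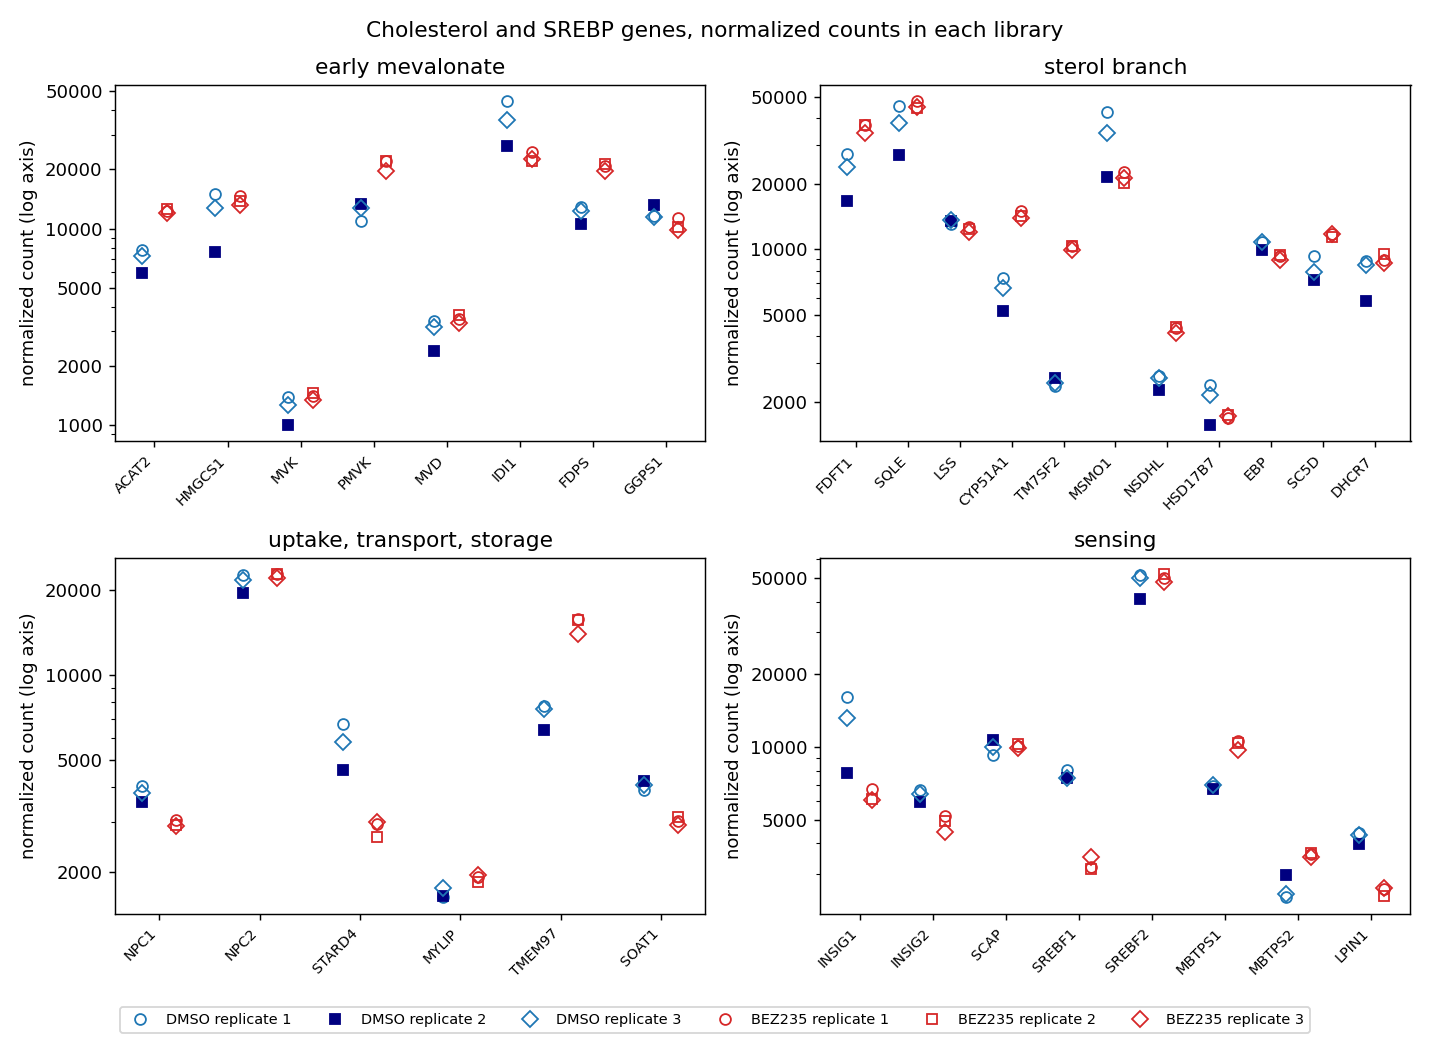
Normalized count of each gene in each of the 6 libraries (vertical log axis), in 4 panels by pathway step, with DMSO in blue and BEZ235 in red and DMSO replicate 2 as a filled square. TM7SF2, TMEM97, SREBF1 and LPIN1 show groups that stand apart, and INSIG1, MSMO1 and HMGCS1 show DMSO replicate 2 well below the other DMSO libraries.

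Levels of different genes were compared per kilobase of exon, with exon lengths from GENCODE v29. With DMSO the highest mean levels were those of MSMO1, at 12949 normalized counts per kilobase, and SQLE, at 12412. With BEZ235 they were those of PMVK, at 16608, SQLE, at 15410, and FDPS, at 12509, and MSMO1 stood at 8457. MBTPS2 was the lowest with DMSO, at 333, and LPIN1 was the lowest with BEZ235, at 417. The order of means did not hold in every library. In DMSO replicate 2 PMVK stood highest, at 10443, above SQLE at 9109 and MSMO1 at 8507, and MVK stood lowest, at 341. In BEZ235 replicate 3 SOAT1, at 426, was just below LPIN1, at 429. The isoforms in use are not known. Counts come from FASTDB rows and lengths from GENCODE, and these gene models can differ. The PMVK row reaches position 154942658, beyond its RefSeq promoter window, which ends at 154936969. What such differences do to the order was not tested.

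The 6 genes of uptake, transport and storage also split (83.3% called, against 66.3% of all genes). TMEM97 and MYLIP rose, NPC1, STARD4 and SOAT1 fell, and NPC2 was not called. STARD4, a soluble carrier that moves sterol between membranes, measured 6707, 4593 and 5797 with DMSO and 2960, 2663 and 3003 with BEZ235. The groups were well apart, at a log2 fold change of -0.97 (SE 0.116, adjusted p = 2.18e-05 in limma), or -1.12 without DMSO replicate 2. TMEM97, a membrane protein that binds NPC1, measured 7771, 6414 and 7583 and rose to 15852, 15670 and 14007, a log2 fold change of 1.07 (SE 0.079, adjusted p = 4.87e-07 in limma).

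NPC1 and NPC2 hand cholesterol out of lysosomes. NPC1 measured 4042, 3541 and 3828 with DMSO and 3055, 2948 and 2910 with BEZ235, all lower, a log2 fold change of -0.35 (SE 0.065, adjusted p = 0.000561 in limma). NPC2 ran from 19583 to 22630 and from 22120 to 22912, with a difference of 0.09 (interval -0.04 to 0.22, adjusted p = 0.218). SOAT1, which esterifies cholesterol for storage, measured 3913, 4227 and 4086 and fell to 3042, 3130 and 2948, a log2 fold change of -0.42 (SE 0.059, adjusted p = 7.27e-05 in limma). MYLIP, a ubiquitin ligase that removes lipoprotein receptors, measured 1626, 1640 and 1753 with DMSO and 1919, 1845 and 1952 with BEZ235. Its rise of 0.19 (limma adjusted p = 0.029) was small, with an adjusted p of 0.0742 without DMSO replicate 1, 0.0819 and 0.0751 without BEZ235 replicates 1 and 3, and 0.354 with total-count scaling (0.00891 to 0.354 over all alternatives).

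In the sensing group both genes of SREBP cleavage rose while both INSIG genes, SREBF1 and LPIN1 fell. Of this group 75% were called, against 66.3% of all genes. SREBF1, whose product drives fatty acid and sterol genes (GSHG0018977, hg38 chromosome 17, 17811334 to 17837002), measured 8042, 7441 and 7421 with DMSO and 3186, 3130 and 3513 with BEZ235. All BEZ235 values were under 50% of every DMSO value, a log2 fold change of -1.22 (SE 0.064, adjusted p = 3.46e-08 in limma), and the DMSO libraries were close together. SREBF2, the main factor of cholesterol synthesis, measured 51626, 41113 and 50193 with DMSO and 50226, 52146 and 48243 with BEZ235. Its difference was 0.08 (interval -0.10 to 0.26, limma adjusted p = 0.392), and -0.021 without DMSO replicate 2.

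INSIG1 (GSHG0040120, chromosome 7, 155297838 to 155310235) measured 6707, 6133 and 6053 with BEZ235, below every DMSO library. Its log2 fold change was -0.91 (SE 0.199, adjusted p = 0.00189 in limma), or -1.21 (SE 0.082, adjusted p = 1.26e-07) without DMSO replicate 2. INSIG2, its less sterol-responsive relative, measured 6660, 5936 and 6380 and fell to 5175, 4927 and 4448, a log2 fold change of -0.38 (SE 0.070, adjusted p = 0.000538 in limma). LPIN1 measured 4435, 3965 and 4317 with DMSO and 2582, 2423 and 2616 with BEZ235, with the groups apart and a log2 fold change of -0.74 (SE 0.065, adjusted p = 1.97e-06 in limma).

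Both protease genes rose. MBTPS1 measured 6925, 6691 and 6945 with DMSO and 10608, 10381 and 9737 with BEZ235, a log2 fold change of 0.58 (SE 0.053, adjusted p = 2.75e-06 in limma). MBTPS2 measured 2391, 2966 and 2470 and rose to 3628, 3637 and 3500, a log2 fold change of 0.47 (SE 0.081, adjusted p = 0.000411 in limma). SCAP, the escort, ran from 9323 to 10698 and from 9892 to 10351, a difference of 0.02 (interval -0.11 to 0.15, adjusted p = 0.784).

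Ratios of 10 member pairs within a library do not depend on scaling between libraries. The ratio of SREBF1 to SREBF2 was 0.156, 0.181 and 0.148 with DMSO and 0.0635, 0.0601 and 0.0728 with BEZ235. That of TM7SF2 to DHCR7 was 0.267, 0.441 and 0.286 and then 1.15, 1.08 and 1.15, so TM7SF2 counts went from below to just above those of DHCR7. The ratio of NPC1 to NPC2 was tight within groups, at 0.176 to 0.181 with DMSO and 0.129 to 0.133 with BEZ235. The groups did not overlap for 6 of the 10 pairs: these 3, SQLE to LSS (2.01 to 3.47, then 3.59 to 3.80), STARD4 to NPC1 (1.30 to 1.66, then 0.903 to 1.03) and HSD17B7 to NSDHL (0.695 to 0.906, then 0.384 to 0.416). Among single genes the groups did not overlap for 70.9% of all tested, and no share was computed for ratios of other gene pairs. For each of the 6 the exact permutation test, two-sided, gave p = 0.1, the smallest it can give with 3 libraries against 3, and 0.167 after Benjamini-Hochberg adjustment over the 10 pairs. INSIG1 to INSIG2 overlapped (1.32 to 2.43 with DMSO, 1.24 to 1.36 with BEZ235, exact p = 0.2). The ratio with DMSO replicate 2, 1.32, was inside the BEZ235 range. FDFT1 to FDPS, MBTPS1 to MBTPS2 and MYLIP to SREBF2 also overlapped, with exact p of 0.6, 0.6 and 0.4.

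Other genes of sterol and neighbouring lipid metabolism were counted from 6 fixed lists of 60 genes, of which 59 were tested, 18 rising and 26 falling. That is 74.6% called, against 66.3% of all genes (33.1% higher and 33.2% lower), the background for each list below. Their median log2 fold change was -0.08. DMSO replicate 2 was the lowest of its group for 24 of these 59 genes (40.7%, against 37.8% of all genes). By list this ran from 0 of 7 genes of sterol-dependent degradation to 8 of 14 (57.1%) of lipoprotein uptake and transfer and 7 of 12 (58.3%) of fatty acid synthesis.

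The 14 genes of lipoprotein uptake and sterol transfer had 9 lower and 3 higher (85.7% called, against 66.3% of all genes), with a median of -0.46. VLDLR, a receptor of the lipoprotein receptor family, measured 6887, 6898 and 7126 with DMSO and 425, 391 and 355 with BEZ235, or 5.60% of the DMSO level (log2 -4.16, SE 0.079, limma adjusted p = 6.9e-11). Its row shares 56.4% of its length with VLDLR-AS1, which went from a mean of 2704 to 36.9, and without strand the reads of the pair cannot be told apart. LRP8, a second receptor of that family, measured 4795, 4158 and 4485 and fell to 2394, 2404 and 2498, and OSBP, an oxysterol-binding transfer protein, fell with a log2 fold change of -0.74 (SE 0.059). GRAMD1A, which carries sterol from the plasma membrane, rose by 0.48, and SCARB1 and STARD3 rose by 0.18 and 0.15. STARD3 lost its call in 9 of 17 alternatives and SCARB1 in 2, and without BEZ235 replicate 2, or with total-count scaling, 1 gene of the 14 rose.

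Liver X receptor (LXR) genes and efflux genes, which act when sterols are abundant, numbered 6, with 1 higher and 2 lower. ABCG1, a sterol exporter, measured 299, 228 and 279 with DMSO and 42.9, 22.7 and 49.8 with BEZ235, a log2 fold change of -2.84 (SE 0.294, adjusted p = 7.34e-06 in limma). ABCA1, the other exporter, measured 1624, 1548 and 1453 and fell to 1077, 1053 and 1091, a log2 fold change of -0.52. NR1H2, which encodes an LXR, rose by 0.45 and overlaps 3 other rows.

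Of 7 genes of sterol-dependent protein degradation and SREBP maintenance, 4 fell and RNF139, a ubiquitin ligase, rose by 0.41. RNF145, a ubiquitin ligase that acts on SCAP, measured 29626, 31556 and 30482 and fell to 13678, 13632 and 12602, a log2 fold change of -1.20 (SE 0.053, adjusted p = 1.08e-08 in limma). ERLIN1, a sterol-binding membrane protein, fell by 0.85 on the log2 scale and SPRING1, which SREBP cleavage needs, by 0.35.

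The 12 genes of the nonsterol isoprenoid branch had 5 higher and 6 lower (91.7% called, against 66.3% of all genes). The subunits of farnesyltransferase both rose, FNTA from 7725, 6981 and 7314 to 17131, 16800 and 16398 and FNTB with a log2 fold change of 1.48 (SE 0.122, adjusted p = 1.21e-06 in limma), though 74.5% of the FNTB row is shared with MAX. The subunits of the enzyme that makes the ubiquinone side chain moved apart, PDSS1 by 0.92 and PDSS2 by -0.99. COQ2, which attaches that chain, had a log2 fold change of -1.15 and ICMT, which methylates prenylated proteins, of -0.62.

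Of 8 tested genes for other sterol and oxysterol steps, 5 rose and 2, LBR and CYP27A1, fell, CYP27A1 from 238, 326 and 268 to 132, 166 and 169. FAXDC2, a member of the sterol oxidase family, measured 1453, 1035 and 1267 and rose to 3868, 4072 and 3474 (log2 1.61, SE 0.113, limma adjusted p = 3.3e-07), CYP7B1, an oxysterol hydroxylase, had a log2 fold change of 0.93 and HSD3B7 of 1.20. The HSD3B7 row lies inside that of MAPK3. CH25H had 0 reads in all 6 libraries.

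The 12 fatty acid genes had 3 higher and 3 lower, with a median of -0.04 beside the fall of SREBF1. FASN, fatty acid synthase, measured 31514, 26865 and 30821 with DMSO and 46396, 47761 and 43630 with BEZ235, a log2 fold change of 0.63 (SE 0.068, adjusted p = 9.75e-06 in limma), and its row lies inside that of SLC16A3. ELOVL6 and ACLY rose by 0.33 and 0.31. ME1, malic enzyme, measured 12609, 12560 and 13069 and fell to 4637, 4529 and 4340 (log2 -1.50, SE 0.051), ACSL3 had a log2 fold change of -1.43 and ELOVL5 of -0.34. The plot of these lists shows VLDLR and ABCG1 farthest from 0.

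**Figure D4:**
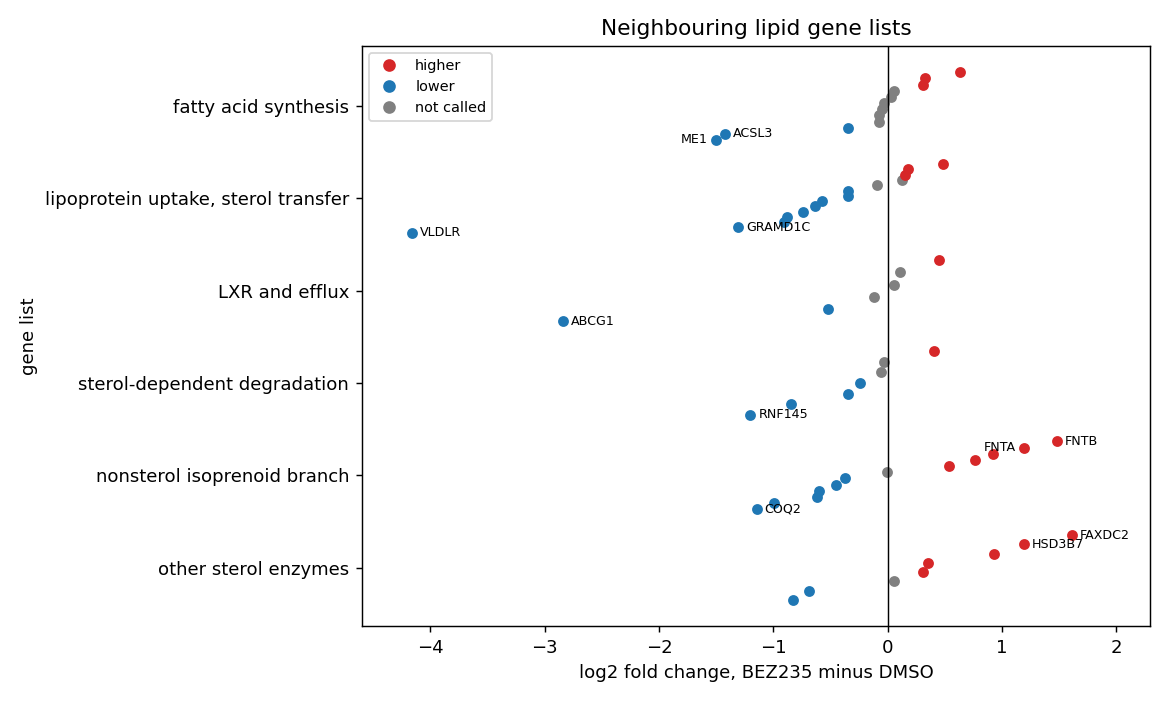
Log2 fold change (BEZ235 minus DMSO, horizontal axis) of the 59 tested genes of 6 neighbouring lists (vertical axis), each point a gene, red or blue where the limma adjusted p was under 0.05 and grey otherwise; genes changed at least 2-fold are named. VLDLR at -4.16 and ABCG1 at -2.84 lie lowest and FAXDC2 at 1.61 highest.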

How the data were processed

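RNA sequencing of 6 TC-71 libraries, 3 with BEZ235 and 3 with DMSO, was used as the authors' deposited table of normalized counts, a signal that is never negative. STAR 2.4.0, DESeq, SAMtools, Picard, FastQC and build hg38 are named, per the submitters' processing notes, in roles not stated. Rows are FASTDB genes with hg38 coordinates, per the file headers. How reads were counted, and whether strand was used, is not stated there. Control columns were matched to DMSO samples by their number.

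Each column held whole multiples of 1 step. Values divided by their column's step were whole reads in 100% of cases (tolerance 0.01 normalized counts). The members and gene lists were chosen with earlier results of these data known.

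The 23923 genes that reached 10 normalized counts in 3 or more of the 6 libraries were fitted with limma 3.58.1 (R 4.3.3, mean-variance trend, group as the only term) on log2(normalized count + 1), two-sided, with Benjamini-Hochberg adjustment over all genes tested and a threshold of 0.05. This scale understates changes of low genes. edgeR 4.0.16 and DESeq2 1.42.0 on the recovered reads were alternatives and called 15744 and 15706 genes, against 15863. All members were named, and of each further list up to 3 genes in each direction with the smallest adjusted p. Markers were fixed separately. Counting limits cover counting error only. In data simulated for this comparison, with 23900 genes tested, recovery was 80.6% for a 1.5-fold change, 98.5% for a 2-fold change and 100% for a 4-fold change. The simulation gave every gene the same modest dispersion and changed only a small set of genes. With DMSO the coefficient of variation exceeded 15% for 12 members, a wider spread than simulated. Recovery for such members cannot be read from these shares.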

Additional observations from a re-analysis of the deposited data

How the results depend on the processing

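Over 17 alternatives (TMM, total-count and quantile scaling, a pseudocount of 0.5 or 10, a filter of 50 or none, no variance trend in limma, edgeR, DESeq2, the replicate block, and leaving out each library) 11 to 16 members were higher and 9 to 13 lower with BEZ235, and 16 to 21 and 26 to 27 of the further lists. Of the 23 members called, 19 kept their call in all 17, none changed sign, and EBP, GGPS1, MSMO1 and MYLIP lost the call in at least 1. Of the 10 not called, 7 were called in at least 1. With total-count scaling NPC2 was at -0.0087, SCAP at -0.077 and SREBF2 at -0.014 on the log2 scale, each of the other sign, while the median of all genes moved to -0.096. Over the left-out libraries SCAP ran from -0.030 to 0.069 and SREBF2 from -0.021 to 0.14. In the main fit NPC2 was at 0.088, SCAP at 0.020 and SREBF2 at 0.082, and a change of scaling shifts well expressed genes by nearly the same amount. Over the left-out libraries SREBF2 changed sign only without DMSO replicate 2 and SCAP only without DMSO replicate 1. These were the lowest DMSO libraries of the respective genes, at 41113 and 9323 normalized counts. Why they were low for these genes was not tested. The log2 ratio difference of MBTPS1 to MBTPS2 ran from -0.00052 to 0.18 and that of FDFT1 to FDPS from -0.21 to 0.011 over the left-out libraries. Replicate numbers did not pair the libraries (correlations of same-numbered deviations from -0.038 to 0.044), and with the replicate block 13 members were higher and 11 lower, SQLE being the member gained (adjusted p = 0.00853). The 4 fragile calls had changes of about 0.2 on the log2 scale except MSMO1, at -0.56, and each group has 3 libraries.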
